A study of Homo sapiens with 11 samples.

Results

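The nuclear genes of the mitochondrial respiratory chain and ATP synthase were followed in liver tumours with reduced NPTX1. They were chosen by symbol alone: NDUFA, NDUFB, NDUFC, NDUFS and NDUFV genes, SDHA to SDHD, UQCR genes, COX4 to COX8 genes and symbols that begin with ATP5, without the NDUFAF assembly factors and without hyphenated symbols. The rule found 87 rows among 23434 rows in all, 23327 of them with a usable gene name: 38 of complex I, 4 of complex II, 10 of complex III, 16 of complex IV and 19 of complex V. A few of these rows are not subunits. UQCRBP1 and ATP5EP2 are pseudogenes, UQCRHL is a copy of UQCRH without introns, ATP5S and ATP5SL are now listed by RefSeq as DMAC2L and DMAC2, and NDUFA4 is now listed as COXFA4 and counted by many with complex IV. CYC1, a subunit of complex III, lies outside the rule.

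The tumours came from PANC1 LM3, a liver-metastatic derivative (generation 3) of PANC1, a long-established line from a human pancreatic ductal carcinoma. The groups were tumours of cells carrying the hairpin shNPTX1_3 (genotype NPTX1 knock down, 3 libraries), tumours with the hairpin shNPTX1_4 (genotype NPTX1 knock down, 4 libraries) and tumours with the control hairpin shCTRL (genotype WT, 4 libraries). In every group 500000 cells were put into the spleen on day 1, and RNA of the liver tumours was taken on day 21. The sources used here do not give the host animal, or whether the libraries of a hairpin came from cells transduced separately.

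The respiratory chain passes electrons from NADH (complex I) and succinate (complex II) through coenzyme Q to complex III, then through cytochrome c to complex IV, where oxygen is reduced. Complexes I, III and IV pump protons out of the mitochondrial matrix, and complex V, the ATP synthase, lets them flow back to make ATP. Complexes I, III, IV and V join subunits encoded in the nucleus with subunits encoded by mitochondrial DNA, while complex II is wholly nuclear. Many of the nuclear subunits are small accessory proteins that hold no redox centre and serve assembly and stability.

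The deposited values are group means of normalized counts, computed by the authors, and a DESeq2 comparison of the 7 knockdown libraries with the 4 control libraries, so no SD over libraries is given and the overlap of single libraries was not analysed here. NPTX1, the targeted gene, averaged 46.5 normalized counts with shNPTX1_3, 38.4 with shNPTX1_4 and 103 with shCTRL in the authors' deposited table (log2 fold change -1.26, adjusted p = 3.65e-06 by DESeq2). Read steps in the low group means placed the depth of the libraries between 10800000 and 41200000 reads on genes. The labelled ductal carcinoma was checked against markers of pancreatic duct epithelium: the keratins KRT8, KRT18 and KRT19 were abundant, CFTR was at or near 0, and 4 of the 8 markers rose and 1 fell by the authors' deposited table. The summed mean of those 8 markers was 59757 normalized counts with shNPTX1_3, 32140 with shNPTX1_4 and 20275 with shCTRL in the authors' deposited table. In bulk tumour RNA, fewer cells of a type and less RNA per cell cannot be told apart.

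Subunit mRNAs that changed in the knockdown tumours were mostly higher, by small steps. Of the 84 genes with an adjusted p, 32 rose, 2 fell and 50 did not pass 0.05 in the authors' deposited table (DESeq2). Among all 18426 named genes tested, 27.3% were called in the authors' deposited table, 15.8% rising and 11.5% falling, against 38.1% of the respiratory genes rising. The median log2 fold change of the 84 genes was 0.23 in the authors' deposited table, beside -0.01 over all named genes, and the sign was positive for 72 of them. The complex IV isoforms COX4I2, COX6A2 and COX8C had no adjusted p there. Summed over the rows, the subunit genes took 0.599% of all normalized counts with shNPTX1_3, 0.589% with shNPTX1_4 and 0.523% with shCTRL, from the authors' deposited table. With a linear trend of the change on transcript length, level and GC content removed from the authors' deposited table, 9 of the 84 genes rose (10.7%) and 3 fell, against 12.3% of all 17943 named genes then rising, and the median of the 84 genes was 0.05, beside -0.01 over all of those genes. The higher rising share of the subunit genes was thus not seen once that trend was removed.

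**Figure D1:**
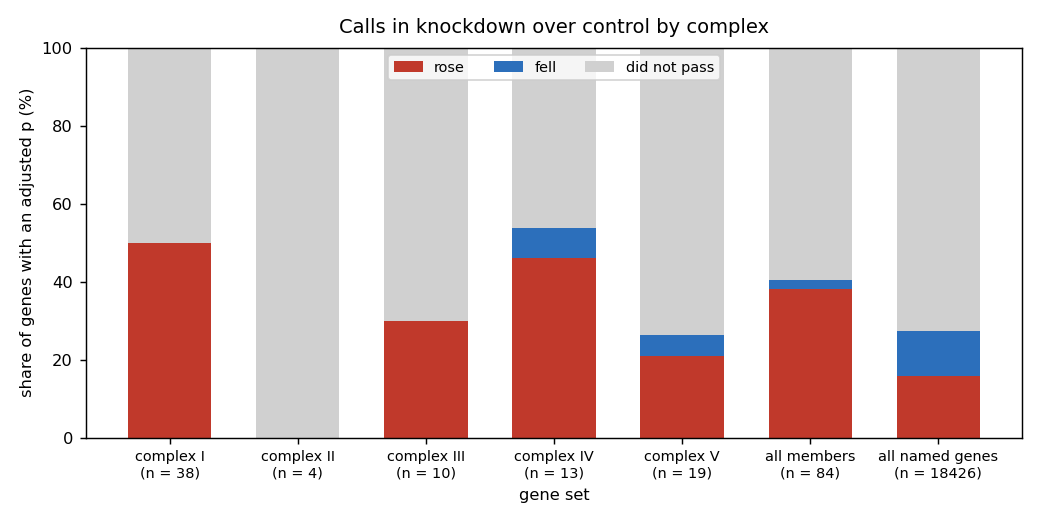
Share of the genes with an adjusted p that rose, fell or did not pass, in percent, for each complex, for all subunit genes and for all named genes. The rising share is 50% in complex I, 0% in complex II and 46.2% in complex IV, against 15.8% of all named genes.

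Promoter sequence was examined because genes of complexes I, III, IV and V were among those that rose. RefSeq windows (GRCh38.p14) of 250 bases before to 50 bases after the start matched 68 of the 87 rows. They were searched on both strands for 3 motifs of factors known to act on respiratory genes: NRF1 (a run of 10 letters, 1 of them free), the ETS factors, which include GABPA (CCGGAAG, or CTTCCGG on the other strand), and YY1 (AAGATGG, or CCATCTT). At least 1 of them lay in 57.4% of the 68 windows, against 25.6% of 15843 protein-coding promoters. NRF1 matched 23.5% against 8.58%, ETS 27.9% against 14.2%, and YY1 23.5% against 6.40%. Within the subunit genes, 15 of 26 windows of genes that rose held a match (57.7%). So did 23 of 40 windows of genes that did not pass (57.5%). COX7B and NDUFB11, which rose, had windows with 0 matches that are not printed, while each window printed holds a match. The windows printed are those of COX7C, the gene with the largest increase, of NDUFA1, the complex I gene with the largest increase, of UQCR11, the complex III gene with the largest increase and 4 matches that do not overlap, and of NDUFS1, a core gene of complex I that did not pass. Capitals mark the matches, read 5′ to 3′ along the gene; a match describes letters only, not binding.
COX7C, chr5:86617691-86617990, plus strand: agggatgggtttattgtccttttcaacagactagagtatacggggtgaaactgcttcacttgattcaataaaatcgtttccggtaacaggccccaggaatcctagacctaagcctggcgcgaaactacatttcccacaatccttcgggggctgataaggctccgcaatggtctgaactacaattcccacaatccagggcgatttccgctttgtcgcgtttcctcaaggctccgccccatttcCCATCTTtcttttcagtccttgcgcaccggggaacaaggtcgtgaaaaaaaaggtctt
NDUFA1, chrX:119871582-119871881, plus strand: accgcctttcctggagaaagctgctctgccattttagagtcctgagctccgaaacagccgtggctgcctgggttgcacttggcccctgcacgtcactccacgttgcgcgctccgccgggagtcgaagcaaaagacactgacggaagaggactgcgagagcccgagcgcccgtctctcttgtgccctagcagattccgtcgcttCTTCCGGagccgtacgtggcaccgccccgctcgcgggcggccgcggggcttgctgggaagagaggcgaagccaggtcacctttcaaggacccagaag
UQCR11, chr19:1605413-1605712, minus strand: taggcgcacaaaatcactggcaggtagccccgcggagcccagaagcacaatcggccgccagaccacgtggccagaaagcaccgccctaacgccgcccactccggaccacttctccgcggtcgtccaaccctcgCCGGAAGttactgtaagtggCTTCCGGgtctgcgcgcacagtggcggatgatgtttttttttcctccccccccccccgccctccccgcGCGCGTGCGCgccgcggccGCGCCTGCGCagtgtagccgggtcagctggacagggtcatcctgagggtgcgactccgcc
NDUFS1, chr2:206159395-206159694, minus strand: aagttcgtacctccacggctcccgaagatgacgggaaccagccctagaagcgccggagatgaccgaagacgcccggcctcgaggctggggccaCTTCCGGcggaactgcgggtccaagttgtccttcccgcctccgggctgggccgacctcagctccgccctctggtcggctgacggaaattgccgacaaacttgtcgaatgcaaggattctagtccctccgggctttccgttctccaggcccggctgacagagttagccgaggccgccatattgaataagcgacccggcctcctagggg

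Complex I, the NADH dehydrogenase, held the most genes that rose in the authors' deposited table: 19 of 38 (50%), beside 15.8% of all named genes. It had 0 falling genes and 20 at an unadjusted p under 0.05 in that table (DESeq2). With the length, level and GC trend removed 6 of the 19 rising genes were called: NDUFA1, NDUFB11, NDUFA8, NDUFA11, NDUFB3 and NDUFS7. The median log2 fold change of complex I was 0.28, against 0.10 with the trend removed, with a range of -0.05 to 0.75 in the authors' deposited table. NDUFA1, a small membrane subunit needed for assembly, had means of 1540 normalized counts with shNPTX1_3, 1473 with shNPTX1_4 and 891 with shCTRL in the authors' deposited table, and rose 1.69-fold (log2 fold change 0.75, standard error 0.11, adjusted p = 2.39e-10 by DESeq2). Both hairpins lay well above the control, close to each other. NDUFB11, an accessory subunit of the membrane arm, had means of 414 normalized counts with shNPTX1_3, 431 with shNPTX1_4 and 274 with shCTRL in the authors' deposited table, and rose by 0.63 on the log2 scale (standard error 0.12, adjusted p = 6.23e-06 by DESeq2). NDUFB3, also of the membrane arm, had means of 719 with shNPTX1_3, 618 with shNPTX1_4 and 431 with shCTRL in the authors' deposited table, and rose by 0.62 (standard error 0.15, adjusted p = 6.14e-04 by DESeq2), against 0.39 with the trend removed. NDUFA11, another membrane subunit, had means of 472 with shNPTX1_3, 455 with shNPTX1_4 and 318 with shCTRL in the authors' deposited table (log2 fold change 0.54, adjusted p = 5.85e-04 by DESeq2). All 4 share exon bases with an opposite-strand gene: NDUFA1 with RNF113A, NDUFB11 with RBM10, NDUFB3 with FAM126B and NDUFA11 with an antisense RNA. NDUFA11 shared 120 of 4839 exon bases with that RNA, and 467 with a same-strand gene. The opposite-strand part was 341 of 766 exon bases for NDUFA1, 636 of 1418 for NDUFB11 and 218 of 1103 for NDUFB3. Complex I genes that did not pass had such overlap too, among them NDUFS1 (1411 of 12268 exon bases), NDUFA2, NDUFA3 and NDUFA7. The sources used here do not give the strand setting of the counting. NDUFB2, a small membrane arm subunit that overlaps BRAF and an antisense RNA, had means of 1132 with shNPTX1_3, 1060 with shNPTX1_4 and 758 with shCTRL in the authors' deposited table (log2 fold change 0.53, adjusted p = 2.94e-04 by DESeq2), and its call was lost with the trend removed (0.29, adjusted p = 0.0759).

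NDUFS7, a core subunit that binds an iron-sulfur cluster, rose by 0.40 in the authors' deposited table (adjusted p = 0.00184 by DESeq2). NDUFS8, another iron-sulfur subunit of the core, had an adjusted p of 0.0504 by the authors' deposited table (DESeq2, log2 fold change 0.35), just outside the threshold. NDUFS1, the large iron-sulfur subunit, had means of 3558 with shNPTX1_3, 3615 with shNPTX1_4 and 3381 with shCTRL in the authors' deposited table, and did not pass (95% interval of the log2 fold change -0.05 to 0.23). NDUFS5, an accessory subunit with the highest level per kilobase in complex I, had means of 3914 with shNPTX1_3, 3501 with shNPTX1_4 and 3218 with shCTRL in the authors' deposited table (adjusted p = 0.194 by DESeq2). By symbol group, 9 of 14 NDUFA genes rose in the authors' deposited table, NDUFAB1 included. The rising counts were 6 of 11 for NDUFB, 3 of 8 for NDUFS and 0 of 3 for NDUFV genes. Among all named genes 15.8% rose, or 19.4% of those at 2 CPM or more. Of the 3 NDUFV genes, 0 had an unadjusted p under 0.05 (DESeq2). Differences between these small groups were not tested.

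NDUFA2 was the complex I gene on which the hairpins differed most. NDUFA2, an accessory subunit of the NADH-oxidizing module, had means of 126 normalized counts with shNPTX1_3, 316 with shNPTX1_4 and 237 with shCTRL in the authors' deposited table. The hairpins thus lay on opposite sides of the control, and the comparison of both together gave a log2 fold change near -0.01, standard error 0.29, in the authors' deposited table (adjusted p = 0.981 by DESeq2), a wider error than that of the genes above. The difference between the hairpins was not tested, since it needs values of single libraries. The other rising genes of complex I, from NDUFC2 and NDUFA8 down to NDUFS6 and NDUFA12, had log2 fold changes of 0.52 to 0.27 in the authors' deposited table. Among them, NDUFAB1, the mitochondrial acyl carrier protein, rose by 0.44, NDUFA13 by 0.43 and NDUFS4, an accessory subunit whose loss destabilizes the complex, by 0.31 in the authors' deposited table. The calls of NDUFA5, NDUFA12 and NDUFS6 were lost with the groups scaled to the same total. By the authors' deposited table NDUFA5 rose by 0.30; RefSeq names 12 pseudogenes of it that could share its reads, and NDUFC2 has a readthrough transcript with KCTD14. The 19 rows that did not pass ran from -0.05 for NDUFV3 to 0.35 for NDUFS8 in the authors' deposited table.

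Complex II, succinate dehydrogenase, had no called gene: 0 of 4 rose and 0 fell by the authors' deposited table (DESeq2), with 2 at an unadjusted p under 0.05. SDHA, the flavoprotein, had means of 3392 with shNPTX1_3, 2816 with shNPTX1_4 and 2735 with shCTRL in the authors' deposited table (log2 fold change 0.16, adjusted p = 0.242 by DESeq2). SDHB, the iron-sulfur subunit, had means of 1915 with shNPTX1_3, 1721 with shNPTX1_4 and 1515 with shCTRL in the authors' deposited table (log2 fold change 0.25, adjusted p = 0.133 by DESeq2). The membrane anchors had opposite signs. SDHD had means of 1315 with shNPTX1_3, 1143 with shNPTX1_4 and 987 with shCTRL in the authors' deposited table (log2 fold change 0.30, adjusted p = 0.0822 by DESeq2). SDHC had means of 240 with shNPTX1_3, 284 with shNPTX1_4 and 330 with shCTRL in the authors' deposited table (log2 fold change -0.32, adjusted p = 0.108 by DESeq2). SDHA, SDHB and SDHD thus lay above the control with both hairpins and SDHC below it. SDHC was called lower when the groups were scaled to the same total and when the length, level and GC trend was removed. The 95% intervals of the log2 fold change ran from -0.04 to 0.37 for SDHA and from -0.63 to -0.02 for SDHC in the authors' deposited table, so changes of the size seen in complex I lie within some of them.

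Complex III, the cytochrome bc1 complex, had 3 rising genes of 10 (30%) and 0 falling by the authors' deposited table (DESeq2). Among all named genes 15.8% rose, or 19.4% of those at 2 CPM or more. The median log2 fold change of complex III was 0.25 in that table. All 3 rising genes encode small accessory subunits. UQCR11 had means of 630 with shNPTX1_3, 631 with shNPTX1_4 and 425 with shCTRL in the authors' deposited table, and rose 1.48-fold (log2 fold change 0.57, standard error 0.12, adjusted p = 7.66e-05 by DESeq2). UQCRB, which contacts the coenzyme Q site, had means of 4566 with shNPTX1_3, 4336 with shNPTX1_4 and 3584 with shCTRL in the authors' deposited table (log2 fold change 0.31, adjusted p = 0.0228 by DESeq2). UQCRQ had means of 1383 with shNPTX1_3, 1321 with shNPTX1_4 and 1112 with shCTRL in the authors' deposited table (log2 fold change 0.28, adjusted p = 0.0137 by DESeq2). Of these, only UQCR11 was called when the groups were scaled to the same total, and likewise with the length, level and GC trend removed. UQCRH, the hinge protein that binds cytochrome c1, was the most abundant of all rows per kilobase of transcript, at 7931 normalized counts per kilobase over all libraries from the authors' deposited table, ahead of NDUFS5 at 6430 and UQCRB at 6396. Its means were 4928 with shNPTX1_3, 4904 with shNPTX1_4 and 4573 with shCTRL in the authors' deposited table (log2 fold change 0.10, adjusted p = 0.446 by DESeq2). For UQCRH the groups lay close together. The proteins of the core did not pass either: UQCRC1 had a log2 fold change of 0.09 and UQCRC2 of 0.11, and the Rieske iron-sulfur protein UQCRFS1 had 0.26 with an adjusted p of 0.0515 by the authors' deposited table (DESeq2). CYC1, cytochrome c1, had means of 1429 with shNPTX1_3, 1454 with shNPTX1_4 and 1385 with shCTRL in the authors' deposited table and did not pass. The other 3 rows, UQCR10, UQCRHL and the pseudogene UQCRBP1, did not pass, with log2 fold changes of 0.12 to 0.31 in that table, and UQCRHL stayed under 10 normalized counts in each group.

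Complex IV, cytochrome c oxidase, held the largest change of the chain. COX7C, a small membrane subunit, had means of 1892 normalized counts with shNPTX1_3, 2002 with shNPTX1_4 and 736 with shCTRL in the authors' deposited table, and rose 2.66-fold (log2 fold change 1.41, standard error 0.11, adjusted p = 8.98e-33 by DESeq2). Its promoter window is the first printed above, and RefSeq names 4 pseudogenes of it. It was the only row at least 2-fold above control with either hairpin among rows at a mean of 10 normalized counts or more, with log2 ratios of 1.36 with shNPTX1_3 and 1.44 with shNPTX1_4 from the authors' deposited table. At 2 CPM or more, 4.47% of genes with shNPTX1_3 and 2.71% with shNPTX1_4 were at least 2-fold from control in either direction. Of the 13 rows of complex IV with an adjusted p, 6 rose (46.2%) and 1 fell by the authors' deposited table (DESeq2). Their median log2 fold change was 0.31. Among all named genes 15.8% rose and 11.5% fell in that table. With the length, level and GC trend removed only COX7C and COX7B were called in complex IV, and the median was 0.05. COX7B, another small membrane subunit, had means of 1310 with shNPTX1_3, 1192 with shNPTX1_4 and 871 with shCTRL in the authors' deposited table, and rose by 0.51 (standard error 0.10, adjusted p = 4.37e-06 by DESeq2), against 0.27 with the trend removed. Both hairpins were above the control for COX7B. COX5B, which faces the matrix, had means of 1426 with shNPTX1_3, 1329 with shNPTX1_4 and 1088 with shCTRL in the authors' deposited table, and rose by 0.33 (adjusted p = 0.00693 by DESeq2). COX6C, with the highest level per kilobase in complex IV, had means of 3394 with shNPTX1_3, 2928 with shNPTX1_4 and 2485 with shCTRL in the authors' deposited table (log2 fold change 0.33, adjusted p = 0.0496 by DESeq2). RefSeq names 18 pseudogenes of COX6C, and its call was lost under 5 of the alternatives given in the closing section. COX5A, the remaining row, did not pass, with a log2 fold change of 0.09 by the authors' deposited table.

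**Figure D2:**
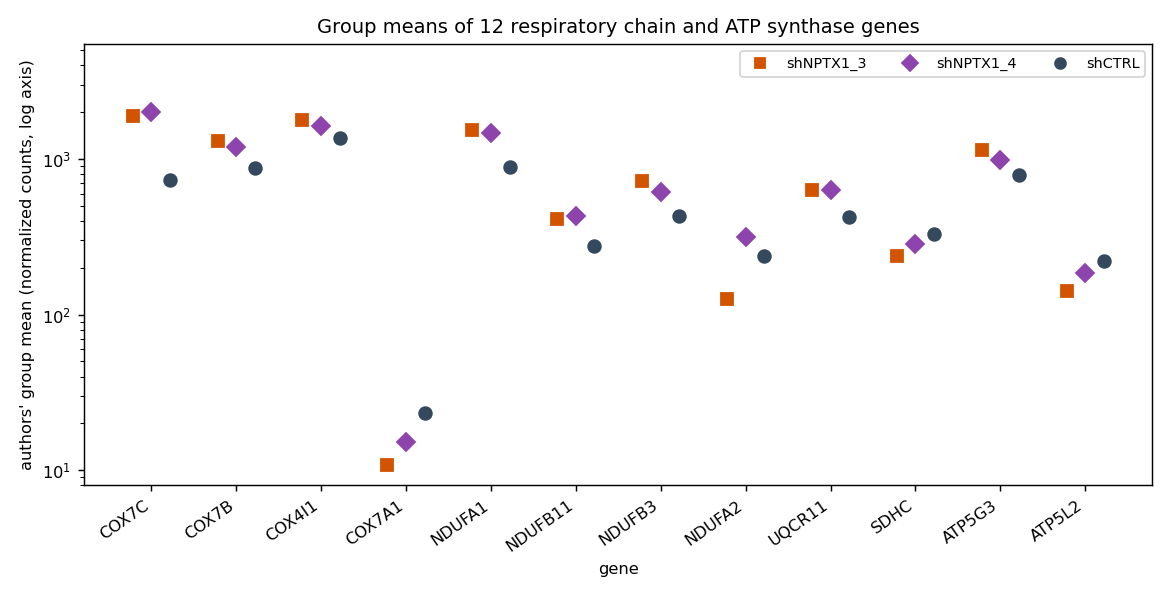
Authors' group means in normalized counts, on a log axis, of 12 subunit genes with shNPTX1_3 (squares), shNPTX1_4 (diamonds) and shCTRL (circles). For COX7C the means are 1892 with shNPTX1_3 and 2002 with shNPTX1_4 against 736 with shCTRL, for COX7A1 both lie below 23.4 with shCTRL, and for NDUFA2 they lie on opposite sides of 237 with shCTRL.

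Several complex IV subunits come as isoforms from separate genes, a common form and a form known from muscle, lung or testis. COX7A1, the heart and muscle isoform, had means of 10.7 with shNPTX1_3, 15.2 with shNPTX1_4 and 23.4 with shCTRL in the authors' deposited table, and fell by 0.81 on the log2 scale (standard error 0.33, adjusted p = 0.0490 by DESeq2). Its log2 ratio to control was -1.06 with shNPTX1_3 and -0.59 with shNPTX1_4 from the authors' deposited table, and its call did not hold with p-values adjusted over every row with a p or with the trend removed. COX7A2, the common isoform, had means of 1694 with shNPTX1_3, 1473 with shNPTX1_4 and 1288 with shCTRL in the authors' deposited table (log2 fold change 0.28, adjusted p = 0.0739 by DESeq2). COX4I1, the common form of the regulatory subunit, had means of 1795 with shNPTX1_3, 1633 with shNPTX1_4 and 1377 with shCTRL in the authors' deposited table, and rose by 0.31 (adjusted p = 0.0193 by DESeq2). Its call was lost with the groups scaled to the same total and with the trend removed. COX4I2, known as the isoform of lung and of low oxygen, was listed at 0 with both NPTX1 hairpins and at 0.354 with shCTRL in the authors' deposited table. COX4I2 was thus at or near 0 in each group. COX6A1 rose by 0.40, with means of 2173 with shNPTX1_3, 2133 with shNPTX1_4 and 1633 with shCTRL in the authors' deposited table (adjusted p = 0.00302 by DESeq2), while its muscle isoform COX6A2 stayed under 1 normalized count in each group. COX6B1 had means of 1989 with shNPTX1_3, 1909 with shNPTX1_4 and 1683 with shCTRL in the authors' deposited table (log2 fold change 0.21, adjusted p = 0.128 by DESeq2). Its testis isoform COX6B2 had means of 78.6 with shNPTX1_3, 75.6 with shNPTX1_4 and 92.4 with shCTRL in the authors' deposited table (log2 fold change -0.28, adjusted p = 0.246 by DESeq2). The COX6B2 means were below the control with both hairpins and the COX6B1 means above it, and neither gene passed. COX8A had means of 596 with shNPTX1_3, 521 with shNPTX1_4 and 435 with shCTRL in the authors' deposited table (log2 fold change 0.35, adjusted p = 0.0649 by DESeq2), and COX8C was at most 0.291 in each group. COX7B2, the testis isoform of COX7B, had means of 3.91 with shNPTX1_3, 9.95 with shNPTX1_4 and 7.97 with shCTRL in the authors' deposited table, and did not pass. None of the tissue isoforms named here rose.

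Complex V, the ATP synthase, had 4 rising (21.1%) and 1 falling row of 19 in the authors' deposited table (DESeq2). Among all named genes 15.8% rose and 11.5% fell, and at 2 CPM or more 19.4% rose. The median log2 fold change of complex V, 0.17, was the lowest of the 5 complexes in that table. ATP5G3, 1 of 3 genes that encode the same ring subunit c, had means of 1143 with shNPTX1_3, 992 with shNPTX1_4 and 794 with shCTRL in the authors' deposited table, and rose by 0.41 (standard error 0.13, adjusted p = 0.00949 by DESeq2). The other subunit c genes did not pass. ATP5G1 had means of 621 with shNPTX1_3, 696 with shNPTX1_4 and 604 with shCTRL in the authors' deposited table (log2 fold change 0.13, adjusted p = 0.429 by DESeq2). ATP5G2 had means of 2252 with shNPTX1_3, 2394 with shNPTX1_4 and 2082 with shCTRL in the authors' deposited table (log2 fold change 0.17, adjusted p = 0.268 by DESeq2). Whether the 3 genes differ in response was not tested. ATP5E, the epsilon subunit of the F1 head, had means of 5265 with shNPTX1_3, 4750 with shNPTX1_4 and 3789 with shCTRL in the authors' deposited table, and rose by 0.39 (standard error 0.12, adjusted p = 0.00734 by DESeq2). ATP5E was above the control with both hairpins. ATP5C1, the rotating gamma subunit, had means of 1525 with shNPTX1_3, 1441 with shNPTX1_4 and 1260 with shCTRL in the authors' deposited table (log2 fold change 0.23, adjusted p = 0.0339 by DESeq2). ATP5J2, a subunit of the membrane part with a readthrough transcript into PTCD1, had means of 1617 with shNPTX1_3, 1718 with shNPTX1_4 and 1357 with shCTRL in the authors' deposited table (log2 fold change 0.31, adjusted p = 0.0259 by DESeq2). The main subunits of the catalytic head did not pass. ATP5B, the beta subunit, had means of 6211 with shNPTX1_3, 6081 with shNPTX1_4 and 5283 with shCTRL in the authors' deposited table (log2 fold change 0.22, adjusted p = 0.0879 by DESeq2). ATP5A1, the alpha subunit, had means of 5458 with shNPTX1_3, 5292 with shNPTX1_4 and 4847 with shCTRL in the authors' deposited table (log2 fold change 0.15, adjusted p = 0.238 by DESeq2). For ATP5B and ATP5A1 both hairpins lay above the control, and neither gene passed. Scaled to the same total, ATP5C1 and ATP5J2 were not called. ATP5L2, a copy related to subunit g, fell by 0.41, with means of 142 with shNPTX1_3, 185 with shNPTX1_4 and 222 with shCTRL in the authors' deposited table (adjusted p = 0.0497 by DESeq2). Its call was lost with p-values adjusted over every row with a p. ATP5L, which encodes subunit g itself, did not pass, with a log2 fold change of 0.14 by the authors' deposited table. The remaining rows, from ATP5SL at -0.19 to ATP5F1 at 0.30, did not pass, ATP5F1 with an adjusted p of 0.0655 by the authors' deposited table (DESeq2). The pseudogene ATP5EP2 stayed under 3 normalized counts in each group. No complex V row was called higher once the length, level and GC trend was removed, and the median of the complex was then -0.03.

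Both hairpins were set against the same control libraries. Over the 81 rows at a mean of 10 normalized counts or more, the median log2 ratio to control was 0.31 with shNPTX1_3 and 0.20 with shNPTX1_4 from the authors' deposited table, computed with a pseudocount of 1. By complex, the medians were 0.33 with shNPTX1_3 and 0.25 with shNPTX1_4 in complex I, 0.39 with shNPTX1_3 and 0.24 with shNPTX1_4 in complex IV, and 0.16 with shNPTX1_3 and 0.19 with shNPTX1_4 in complex V, from the authors' deposited table. The shNPTX1_3 mean was above the shNPTX1_4 mean in 56 of the 81 rows, among them all of SDHA, SDHB and SDHD, and over all genes at 2 CPM or more it was above in 6708 of 14131. Over all genes at 2 CPM or more, 51.4% lay above control with shNPTX1_3 and 52.0% with shNPTX1_4. Pancreatic acinar markers moved with shNPTX1_3: the sum of 5 markers was 363 normalized counts with shNPTX1_3, 2.30 with shNPTX1_4 and 3.77 with shCTRL in the authors' deposited table, with AMY2A giving 251 of the sum with shNPTX1_3. The median log2 ratio of the subunit genes was 0.31 with shNPTX1_3 and 0.20 with shNPTX1_4, and its relation to these markers was not tested. The sum of 7 stellate cell and fibroblast markers was 6433 with shNPTX1_3, 3382 with shNPTX1_4 and 1677 with shCTRL in the authors' deposited table. COL3A1 gave 5517 of the sum with shNPTX1_3, 2247 with shNPTX1_4 and 731 with shCTRL in the authors' deposited table, with PDGFRB and DCN under 10 in each group. Of the lists, 2 acinar markers (PRSS1 and AMY2A), 2 stellate markers (COL3A1 and LUM) and 1 hepatocyte marker (APOA1) rose by the authors' deposited table. In those lists 0 markers fell. The stellate markers did not move together. COL1A2 had means of 17.8 with shNPTX1_3, 17.5 with shNPTX1_4 and 74.3 with shCTRL (log2 fold change -2.10, adjusted p = 0.0559 by DESeq2). PDGFRB (-0.31) and ACTA2 (-0.19) were also negative, COL1A1 (0.28) and DCN (0.71) positive, and none of these passed. The part of these markers in the subunit values was not tested. The sum of 8 hepatocyte markers was 119 with shNPTX1_3, 69.5 with shNPTX1_4 and 62.7 with shCTRL in the authors' deposited table, with ALB under 1 in each group. The sum of 7 leukocyte markers was 930 with shNPTX1_3, 765 with shNPTX1_4 and 864 with shCTRL, and that of 6 endothelial markers was 472 with shNPTX1_3, 436 with shNPTX1_4 and 440 with shCTRL, from the authors' deposited table.

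**Figure D3:**
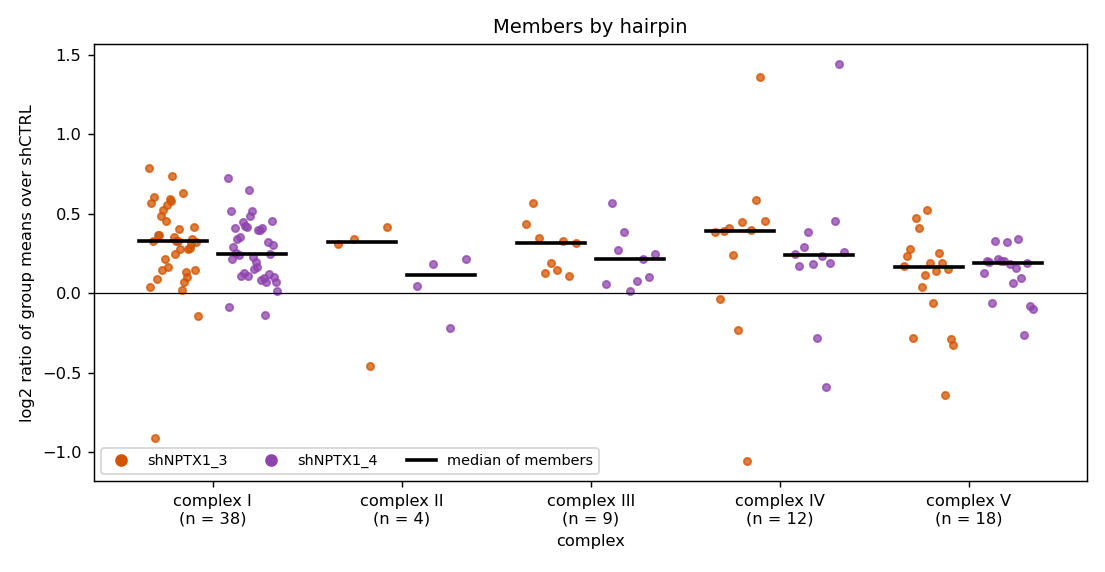
Log2 ratio of the group mean with shNPTX1_3 (orange) and shNPTX1_4 (purple) over shCTRL for the 81 subunit rows at a mean of 10 normalized counts or more, by complex; each point is a gene and bars are medians. Most points lie above 0 with each hairpin, the medians are 0.33 with shNPTX1_3 and 0.25 with shNPTX1_4 in complex I and 0.16 with shNPTX1_3 and 0.19 with shNPTX1_4 in complex V, and COX7C is the pair of points near 1.4.

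The chromosomes of several genes that rose were compared with their surroundings. NDUFA1, NDUFB11 and COX7B are the 3 protein-coding rows on chromosome X, and all 3 rose in the authors' deposited table, with a median log2 fold change of 0.63. On chromosome X 47.1% of genes at 2 CPM or more rose, 210 of 446, against 18.5% of genes on other chromosomes in the authors' deposited table. Among the 5 nearest protein-coding genes on each side, counting those with an adjusted p, 5 of 6 around NDUFA1, 3 of 9 around COX7B and 3 of 9 around NDUFB11 rose in the authors' deposited table. RNF113A, which overlaps NDUFA1, rose by 1.00 and RBM10, which overlaps NDUFB11, by 0.48 in the authors' deposited table. Beside COX7B, MAGT1 rose by 0.66 while ATP7A did not pass (0.07), and CDK16 near NDUFB11 fell by 0.33 in the authors' deposited table. Off chromosome X, 29 of 80 rows rose and 2 fell, and without COX7C also 28 of 79, with a median log2 fold change of 0.23 by the authors' deposited table. COX7C lies on chromosome 5, where 2 of its 10 nearest genes rose and 3 fell by the authors' deposited table. To its left, EDIL3, a secreted integrin ligand, rose by 3.03, and VCAN, the proteoglycan versican, fell by 2.34 in the authors' deposited table. Between them HAPLN1, a hyaluronan link protein, had means of 1.09 with shNPTX1_3, 34.9 with shNPTX1_4 and 2.00 with shCTRL in the authors' deposited table, so its log2 fold change of 3.37 (standard error 1.12) came with a higher mean for shNPTX1_4 alone. To its right, RASA1 fell by 0.24 and CCNH by 0.48 in the authors' deposited table. The order of these neighbours is that of RefSeq on GRCh38.p14.

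Short transcripts tended to have higher log2 fold changes than long ones, and most subunit transcripts are short. Across 13844 genes at 2 CPM or more, which are not independent replicates, Spearman's rho between log2 fold change and transcript length was -0.20, and across the 84 subunit genes it was -0.13. Among genes with transcripts under 700 bases, 14 of 35 subunit genes with an adjusted p rose (40%), against 24.8% of all genes of that length at 2 CPM or more. Between 700 and 1500 bases 43.8% of the subunit genes rose, against 28.6% of all genes, and above 1500 bases 23.5% of the subunit genes, against 17.5% of all genes. The rising share of the subunit genes thus lay above that of all genes in each class of length, by less than in the comparison with all genes together. Length is also shared with other features of these transcripts, and its part in the calls was not tested beyond the removal of the trend.

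**Figure D4:**
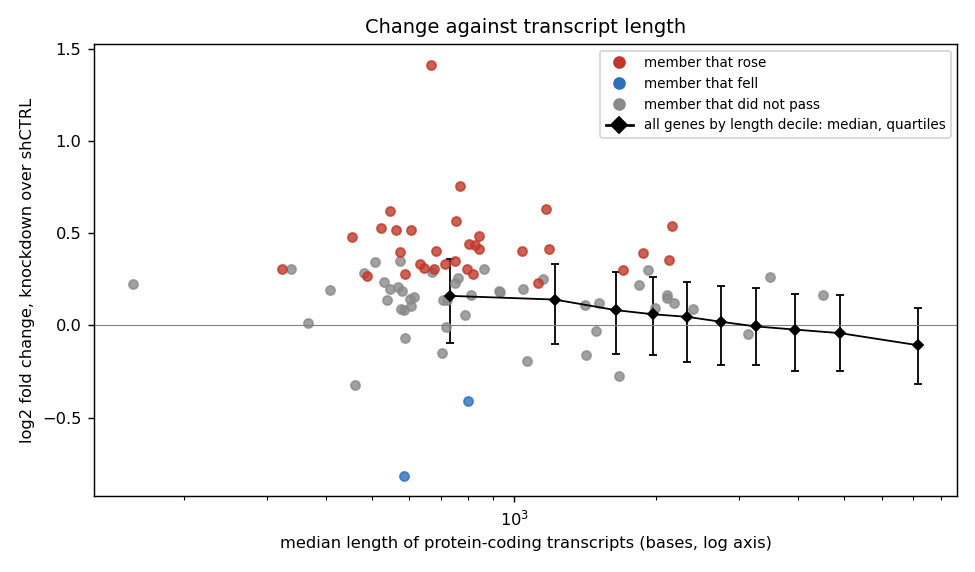
Log2 fold change against the median length of protein-coding transcripts in bases, on a log axis; points are subunit genes with an adjusted p, coloured by call, and black diamonds give the median and quartiles of all genes at 2 CPM or more in each of 10 classes of length with about equal numbers of genes. The medians of all genes run from 0.16 for the shortest to -0.11 for the longest genes, and most subunit genes sit at the short end and above the line.

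Genes that build and serve the chain gave the following counts, to be read beside the 15.8% of all named genes, or 19.4% of those at 2 CPM or more, that rose in the authors' deposited table. Of 15 complex I assembly factors 8 rose and 0 fell by the authors' deposited table (DESeq2), among them TIMMDC1, NDUFAF6 and TMEM126B, by 0.47, 0.46 and 0.40. Of 23 complex IV assembly factors 11 rose and 0 fell by the authors' deposited table, with COX20, which stabilizes a mitochondrially encoded subunit, at 0.70, COA5 at 0.51 and PET100 at 0.50. The ATP synthase factors TMEM70 and ATPAF1 rose by 0.61 and 0.29, and ATPAF2 did not pass in the authors' deposited table. Of 4 complex II factors 1 rose, SDHAF2, which helps attach flavin to SDHA, by 0.27 in the authors' deposited table. Of 6 complex III factors 0 were called, and 2 had an unadjusted p under 0.05 in the authors' deposited table (DESeq2). The mitochondrially encoded subunits were not analysed here.

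Around the chain, 4 of 12 electron-transfer partners and supercomplex factors (33.3%) rose and 0 fell by the authors' deposited table (DESeq2), against 15.8% of all named genes rising. They were ETFA and ETFB, the electron-transfer flavoprotein that feeds coenzyme Q from fatty acid oxidation, at 0.56 and 0.49, HIGD1A at 0.46 and the supercomplex factor COX7A2L at 0.31 in the authors' deposited table. CYCS, cytochrome c, did not pass, with a log2 fold change of -0.02 by the authors' deposited table. Of 10 coenzyme Q synthesis genes 2 rose and 0 fell by the authors' deposited table, COQ6 by 0.36 and COQ5 by 0.32, a share of 20% beside 19.4% of all genes at 2 CPM or more. Of 20 genes of the citric acid cycle and pyruvate dehydrogenase, 7 rose and 1 fell by the authors' deposited table. PDK4, a kinase that switches pyruvate dehydrogenase off, had means of 2253 with shNPTX1_3, 835 with shNPTX1_4 and 292 with shCTRL in the authors' deposited table, and rose by 2.31 (standard error 0.42, adjusted p = 1.09e-06 by DESeq2). PDK1, a kinase of the same family, rose by 0.49 and IDH3G, an isocitrate dehydrogenase subunit on chromosome X, by 0.51, while CS, citrate synthase, fell by 0.38 in the authors' deposited table. The median of those 20 genes was 0.21 in the authors' deposited table.

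The carriers that exchange ADP and ATP across the inner membrane moved apart. SLC25A5 had means of 1901 with shNPTX1_3, 2056 with shNPTX1_4 and 1154 with shCTRL in the authors' deposited table, and rose by 0.79 (adjusted p = 3.25e-10 by DESeq2). SLC25A6 had means of 276 with shNPTX1_3, 514 with shNPTX1_4 and 648 with shCTRL in the authors' deposited table, and fell by 0.65 (adjusted p = 0.0109 by DESeq2). SLC25A4 rose by 0.31 and the phosphate carrier SLC25A3 by 0.22 in the authors' deposited table. Of 12 regulators of mitochondrial gene expression, 3 rose (25%) and 1 fell by the authors' deposited table (DESeq2), beside 15.8% of all named genes rising and 11.5% falling, or 19.4% rising and 13.1% falling at 2 CPM or more. The nuclear receptor gene ESRRA rose by 0.66 and TFAM, which packages and transcribes mitochondrial DNA, by 0.30, while the coactivator gene PPARGC1B fell by 0.50 in the authors' deposited table. The genes of the motif-binding factors did not pass: NRF1 had a log2 fold change of -0.26, GABPA of 0.17 and YY1 of -0.03 in the authors' deposited table. PPARGC1A, the coactivator best known for driving mitochondrial genes, had means of 10.7 with shNPTX1_3, 10.2 with shNPTX1_4 and 10.5 with shCTRL in the authors' deposited table (95% interval of the log2 fold change -0.80 to 0.65).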

How the data were processed

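RNA-seq was made from 11 tumour libraries with the TruSeq RNA kit, version 2, per the labels' protocols. Per the submitters' processing notes, the authors used DESeq2 1.24, STAR 2.7.6a, MultiQC 1.9 and featureCounts 2.0.0 with the builds hg19 and mm39, without a role for each; the sources used here do not give strand setting, annotation or treatment of mouse reads. The deposited group means are a signal, counts divided by size factors and averaged by the authors. Per the file headers, the authors' deposited table also gives a log2 fold change and a standard error of it, a Wald statistic (a score), and the p-value before and after adjustment. Of 23434 rows, 107 were left out: 79 without a name, 26 named by a date and 2 repeated.

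Since values per library were not analysed here, the planned edgeR test was not run. The contrast of the authors' deposited table was used, called at an adjusted p under 0.05. That adjusted p was given for 18426 of the 23327 named genes. The p-values of the authors' deposited table measure the spread between libraries as DESeq2 estimated it for the authors; the labels call the libraries biological replicates. At 2 CPM (38.6 normalized counts) or more, the median standard error of a log2 fold change was 0.125 in the authors' deposited table. Log2 ratios for each hairpin used a pseudocount of 1 and a mean of at least 10 normalized counts. Transcript lengths are medians of protein-coding transcripts in GENCODE release 29 (GRCh38), another build than the submitters', so they and RefSeq serve for names, lengths, gene order and promoter sequences only. Recomputed adjustments were tested on simulated data. Analyses used Python 3.11.15, pandas 2.3.3, numpy 2.4.6 and scipy 1.17.1.

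The members and lists were chosen with earlier results of these data known. Full values are given for the 5 called genes with the largest change in each complex and for genes at least 2-fold from control. They are also given for isoform pairs, the 2 largest means in each complex and the SDH genes. In each other list, up to 3 called genes with the largest change are named, most of them with a log2 fold change only. NDUFA2, the promoter windows, genes near the threshold and other genes given by a single value were chosen after their values were seen. Some single values are not reported here.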

Additional observations from a re-analysis of the deposited data

How the results depend on the processing

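Under 5 settings (groups brought to 1 total, a shift of 0.0661 on the log2 scale; the median of genes at 2 CPM or more set to 0; adjustment over genes at 2 CPM or more; adjustment over every row with a p; length, level and GC trend removed), 9 of 34 called genes kept their call throughout: COX7B, COX7C, NDUFA1, NDUFA11, NDUFA8, NDUFB11, NDUFB3, NDUFS7 and UQCR11. With equal totals 23 subunit genes rose and 3 fell, with 1 rising in complex III, 2 rising in complex V and 1 falling in complex II. With the trend removed 9 rose and 3 fell: 6 rising in complex I, 1 in complex III, 2 in complex IV and 0 in complex V, and 1 falling in complex II, 0 in complex IV and 2 in complex V. There UQCRB (-0.00086) and ATP5J2 (-0.0084) changed sign, and ATP5I (-0.27, adjusted p = 0.0387) was called lower; the cause was not tested. Adjusted over genes at 2 CPM or more, 34 rose and 1 fell, with 0 falling in complex IV, where COX7A1 was not among the genes tested. Adjusted over every row with a p, 31 rose and 0 fell, with 0 falling in complexes IV and V, more rows being tested. At an adjusted p under 0.01, 22 rose and 0 fell, with 1 rising in complex III, 2 rising in complex V, and 0 falling in complexes IV and V. COX6C lost its call under 5 of the alternatives. Settings chosen after seeing the data (NDUFA4 counted with complex IV; pseudogenes and similar rows left out; chromosome X and COX7C left out) gave 32, 32 and 28 rising genes. With the trend removed, a setting added for medians after seeing the data, the median over the subunit genes was 0.048, and those of complexes I to V were 0.10, 0.060, 0.057, 0.052 and -0.031, the last a change of sign. Medians by complex kept their sign with equal totals and a minimum of 10 counts, and medians by hairpin with equal totals, other pseudocounts and no minimum, the hairpin medians lying at 0.22 with shNPTX1_3 and 0.16 with shNPTX1_4 under equal totals.

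No paired analysis was possible because values per library were not analysed here; for the same reason edgeR, another normalization, leaving out each replicate and the replicate block were not run. Shallow libraries weigh as much as deep ones in a group mean, and low isoforms such as COX7A1 carry wide errors.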
